A study of Mus musculus with 5 samples.

Results

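The genes described here are 6 that beta cells use to take up and sense glucose, to fill and release insulin granules, or that mark mature beta cells: G6pc2, Slc2a2, Trpm5, Slc30a8, Sytl4 and Ucn3. They were chosen by name, and all 6 were found among the 6627 genes that the 5 deposited libraries share. In a beta cell, glucose enters through a facilitative transporter and is phosphorylated and metabolised, which closes potassium channels, depolarises the membrane and lets calcium trigger the release of insulin granules. Mature beta cells differ from immature ones in how sharply this chain answers to glucose, and urocortin 3 appears late in that maturation. During pregnancy the mouse islet enlarges and secretes more insulin, and it returns towards its former size after birth.

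The libraries were made by inDrop, a droplet method that barcodes polyadenylated RNA cell by cell. The cells were isolated, dissociated islets of C57BL/6 mice. There was 1 library from non-pregnant mice, 2 from pregnant mice and 2 from postpartum mice, with no further treatment named. The sources used here do not give the day of gestation or postpartum, the ages, or how many animals went into a library. Nothing says that the 2 libraries of a group came from separate animals, so p-values measure the spread between these libraries, which may be technical.

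Whole counts, taken here as UMIs (tagged molecules), were recovered for 4687 cells, with 164 to 1993 cells and 14933 to 2561319 counts per library. The median cell held 2553 counts in the non-pregnant library and 81 to 517 in the other 4. The non-pregnant file also differs from the others in scale and in its features (27309 detected against 1193 to 6684), so pregnancy state and file cannot be told apart in any comparison with it. Pregnant 2 stands apart: its median cell held counts in 9 non-hormone genes, with 5.65 counts per gene detected in a cell, against 1.19 to 1.81 in the other libraries. Whether its values count molecules or reads could not be told from the file, so Poisson intervals and limits for pregnant 2 may be too narrow. Results that rest on it are given with and without it. Cell names in the files are plain numbers, so barcodes shared between libraries could not be counted.

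Cells were put in a class by the largest of Ins1 + Ins2, Gcg, Sst and Ppy. This gave 3872 cells in the insulin class, 560 in the glucagon class, 122 in the somatostatin class and 106 in the Ppy class, while 27 cells with none or with a tie stayed out and held 0 UMIs of the 6 genes. A class is thus a range of hormone counts and can hold other cells: in 100 of the 4660 classed cells the largest hormone was under 1.5 times the next. A list of beta cell markers (Nkx6-1, Pdx1, Mafa, Ero1lb, Prlr, Pcsk1 and Npy) summed to 3166 to 13876 CPM in the insulin class and to 0 to 1102 CPM in the glucagon class of the same libraries. Alpha cell markers (Ttr, Irx1, Irx2, Slc7a2, Gria3 and Peg3) summed to 21416 to 67892 CPM in the glucagon class and to 0 to 3710.3 CPM in the insulin class. Acinar markers reached 34.3 to 2719 CPM in the insulin class of 4 libraries and 10471 CPM in pregnant 2. CPM here is the count scaled to the usual CPM total over the non-hormone UMIs of the shared genes, pooled over the cells of a class, so that the hormone load of a cell does not set the level of the other genes.

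The sequence just upstream of the start site is shown for G6pc2 and Ucn3, the most abundant of the 6 in the insulin class, and for the glucose transporter gene Slc2a2. TAAT is the core read by homeodomain factors such as PDX1 and NKX6-1. The 250 bases are from RefSeq on GRCm38.p6, 5′ to 3′ on the gene's strand, at chr2:69210823-69211072 for G6pc2, chr3:28697653-28697902 for Slc2a2 and chr13:3945350-3945599 for Ucn3. Capitals mark TAAT and the E-box CATCTG on either strand.
G6pc2: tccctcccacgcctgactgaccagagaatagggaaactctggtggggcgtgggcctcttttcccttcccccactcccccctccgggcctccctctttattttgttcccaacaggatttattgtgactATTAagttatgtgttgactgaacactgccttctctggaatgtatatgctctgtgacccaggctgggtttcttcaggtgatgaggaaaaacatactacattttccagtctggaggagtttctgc
Slc2a2: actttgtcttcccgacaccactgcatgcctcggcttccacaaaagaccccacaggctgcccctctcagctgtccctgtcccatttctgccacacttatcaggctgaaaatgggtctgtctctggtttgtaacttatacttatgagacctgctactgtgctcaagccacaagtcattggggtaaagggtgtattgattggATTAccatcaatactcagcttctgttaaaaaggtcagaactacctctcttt
Ucn3: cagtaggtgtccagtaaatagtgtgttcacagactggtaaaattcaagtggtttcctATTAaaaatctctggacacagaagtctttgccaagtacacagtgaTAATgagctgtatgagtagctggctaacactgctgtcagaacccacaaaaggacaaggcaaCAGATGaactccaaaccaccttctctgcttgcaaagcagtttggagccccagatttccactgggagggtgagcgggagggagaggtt
TAAT was found on either strand in 4 of the 5 genes with an entry in the table: 123 bases upstream in G6pc2, 51 in Slc2a2, 202 in Trpm5, and 193 and 148 in Ucn3, with none in Sytl4. It is present in 54.9% of 32851 upstream windows of this length. CATCTG, read by NEUROD1 with its partners, stood 87 bases upstream in Ucn3 only and is present in 14.4% of windows. CACCC was found in Slc2a2, Ucn3 and Sytl4 (52.0% of windows), while TGCTGA (16.1%), a core letter run of MAF elements, was in none of the 5. Slc30a8 had no entry.

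On GRCm38 with GENCODE M21, G6pc2 lies at chr2:69211073-69227841, Slc2a2 at chr3:28697903-28731359 and Slc30a8 at chr15:52295553-52335798, all on the plus strand. Trpm5 lies at chr7:143069153-143094642, Sytl4 at chrX:133936385-133981812 and Ucn3 at chr13:3940688-3945349, on the minus strand. Slc2a2 overlaps the antisense gene 1700112D23Rik and Trpm5 overlaps Tssc4 on the other strand. Whether the authors' counting used strand is not stated in those sources, so reads of these pairs may not be separable.

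Across the hormone classes, all 6 genes had most of their UMIs in the insulin class, which holds most cells. Per non-hormone UMI, Slc30a8 differed by less than its error between the insulin and the glucagon class, while the other 5 were at a higher level in the insulin class over the libraries together. Over all libraries the insulin class held 3786 UMIs of G6pc2, 2497 of Ucn3, 702 of Slc30a8, 532 of Sytl4, 519 of Slc2a2 and 228 of Trpm5 among 1853037 non-hormone UMIs. The glucagon class held 25, 14, 119, 1, 6 and 0 of them, in the same order, among 221809. Counts were not scaled by transcript length, so the order of genes within a class is an order of UMIs and not of transcripts per length.

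**Figure D1:**
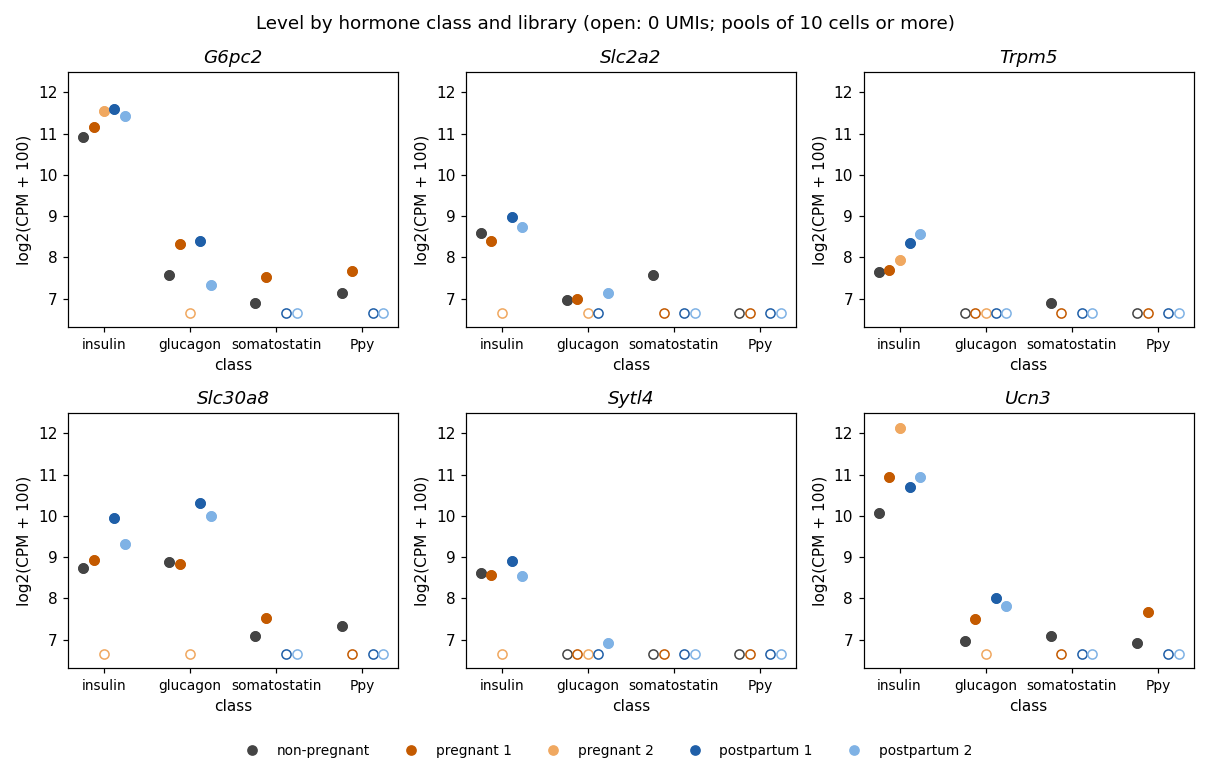
Level of each gene as log2(CPM + 100) in the insulin, glucagon, somatostatin and Ppy classes, 1 point per library and class of at least 10 cells, open where 0 UMIs were counted. G6pc2, Slc2a2, Trpm5, Sytl4 and Ucn3 are highest in the insulin class in the 4 libraries other than pregnant 2, Slc30a8 is high in the insulin and glucagon classes, and pregnant 2 is at 0 for Slc2a2, Slc30a8 and Sytl4.

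G6pc2 encodes an islet glucose-6-phosphatase catalytic subunit, which removes the phosphate from glucose-6-phosphate and so affects how strongly glycolysis answers to glucose. Its insulin-class level was 1829 CPM in non-pregnant islets, 2182 and 2909 in pregnant 1 and 2, and 3024 and 2638 in postpartum 1 and 2. In the glucagon class the values were 89.8, 218.5, 0, 236.2 and 61.8 CPM. The lowest insulin-class library was thus above the highest glucagon-class library. Within the non-pregnant library the ratio of insulin to glucagon class was 20.4 (exact 95% interval 11.4 to 40.9, counting error only), and in postpartum 2 it was 42.7 (14.5 to 207.9). Over libraries the difference in log2(CPM + 100) was 3.68 ± 0.46 (SE), with an adjusted p of 3.1e-05 by limma over all genes tested.

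Slc2a2 encodes GLUT2, the transporter that carries glucose into rodent beta cells. Its insulin-class level was 289 CPM in the non-pregnant library, 239.9 and 0 in pregnant 1 and 2, and 407 and 325 in postpartum 1 and 2. The glucagon class held 24.5, 27.3, 0, 0 and 41.2 CPM, or 3, 1, 0, 0 and 2 UMIs. The 0 of pregnant 2 comes from 6876 non-hormone UMIs in its insulin class, among which 3 counts would be 436 CPM and the exact 95% upper limit of 0 is 536 CPM, so a level as in the other libraries was not detectable there. The class difference was 1.40 ± 0.34 on the log2 scale and missed the threshold (limma adjusted p = 0.054). Without pregnant 2 it was 1.75 ± 0.36 and passed it (limma adjusted p = 0.0069).

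Trpm5 encodes a calcium-activated cation channel that adds to glucose-induced depolarisation in beta cells. It was the lowest of the genes in counts, with 99.3, 106.6, 145.4, 228.7 and 278.3 CPM in the insulin class in the order non-pregnant, pregnant 1 and 2, postpartum 1 and 2. The pregnant 2 value is 1 UMI. No UMI was seen in the 560 cells of the glucagon class, where 3 counts over the libraries would be 13.5 CPM, and 1 UMI in the somatostatin class. The insulin class was at least 4.06-fold higher than the glucagon class in the non-pregnant library and at least 4.51-fold higher in postpartum 2, against the level that 3 counts would give, and the exact 95% lower limits of these ratios were 3.24 and 3.54. Trpm5 fell below the filter of 50 CPM in the mean over pools and so was not tested with the other genes. Fitted with no filter, the class difference was 1.39 ± 0.23 on the log2 scale (limma adjusted p = 0.0016). With 0 UMIs in every glucagon-class pool, its size rests on the constant of 100 CPM. In pregnant 2 and postpartum 1, 3 counts in the glucagon class would be 2165 and 236 CPM, above the insulin-class levels. These libraries could thus not show a difference by counting.

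Slc30a8 encodes ZNT8, the zinc transporter of hormone granules, which is known from both beta and alpha cells. Its insulin-class level was 330.1 CPM in non-pregnant islets, 387 and 0 in pregnant 1 and 2, and 889 and 541 in postpartum 1 and 2. In the glucagon class it stood at 375, 355, 0, 1181 and 926 CPM in the same order. The 2 classes overlap, with the glucagon class higher in 3 of the 4 libraries that held any UMI. The ratio of insulin to glucagon class was 0.88 (0.65 to 1.22) in the non-pregnant library, 1.09 (0.62 to 2.08) in pregnant 1, and for the postpartum libraries 0.75 (0.40 to 1.48) and 0.58 (0.41 to 0.85). Over libraries the difference was -0.22 ± 0.44 on the log2 scale, smaller than its error (limma adjusted p = 1.00). The somatostatin and Ppy classes held 3 UMIs of Slc30a8 each, among 75773 and 65474 non-hormone UMIs.

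Sytl4 encodes granuphilin, a RAB27 effector that docks insulin granules at the membrane. Its insulin-class values were 291, 282, 0, 381 and 273 CPM in the order non-pregnant, pregnant 1 and 2, postpartum 1 and 2. The glucagon class held 1 UMI in all, in postpartum 2, and the somatostatin and Ppy classes held 0. The insulin class was at least 11.9-fold higher than the glucagon class in the non-pregnant library and at least 3.44-fold higher in pregnant 1, against the level of 3 counts. The exact 95% lower limits of these ratios were 9.60 and 2.76. The difference over libraries was 1.56 ± 0.32 on the log2 scale (limma adjusted p = 0.013), and 1.95 ± 0.32 without pregnant 2 (limma adjusted p = 0.0006). With any 1 of the other 4 libraries left out, Sytl4 was not called.

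Ucn3 encodes urocortin 3, a peptide stored with insulin that acts on neighbouring delta cells and marks mature mouse beta cells. It stood at 975 CPM in the insulin class of the non-pregnant library, 1874 and 4363 in pregnant 1 and 2, and 1576 and 1860.3 in postpartum 1 and 2. The glucagon class held 24.5, 81.9, 0, 157.5 and 123.5 CPM. Every insulin-class value was above every glucagon-class value. The ratio of insulin to glucagon class was 39.8 (13.6 to 193) in the non-pregnant library and 15.1 (6.85 to 41.3) in postpartum 2. The difference over libraries was 3.57 ± 0.47 on the log2 scale (limma adjusted p = 5.5e-05), and 3.10 ± 0.47 without pregnant 2 (limma adjusted p = 0.00019).

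**Figure D2:**
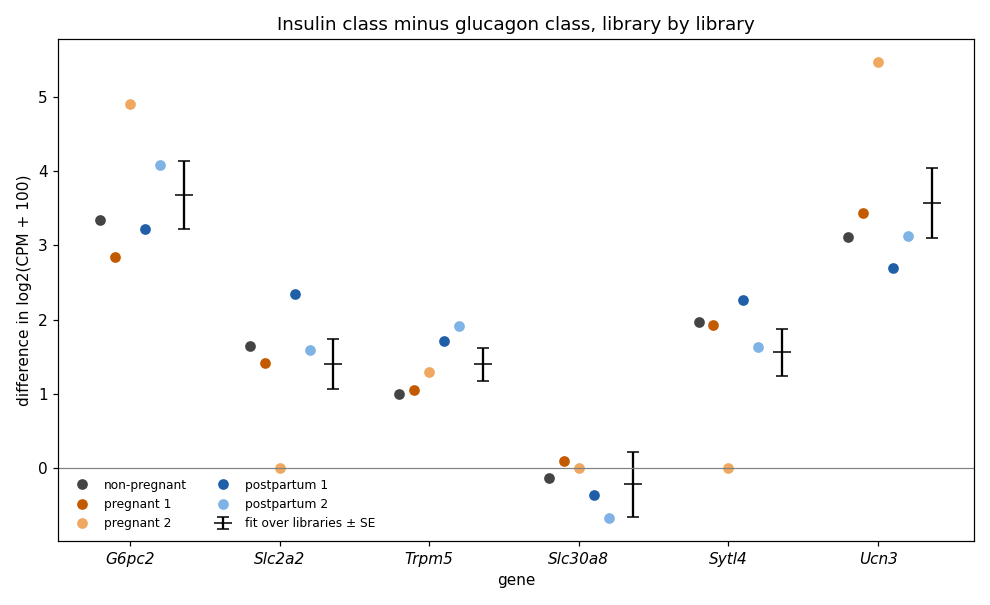
Insulin-class minus glucagon-class level of each gene in log2(CPM + 100), 1 coloured point per library, with the fit over libraries and its SE in black (Trpm5 from the fit with no filter on low values). G6pc2 and Ucn3 lie at 2.70 or more in every library, Slc30a8 lies on both sides of 0, and the points of pregnant 2 at 0 for Slc2a2, Slc30a8 and Sytl4 are genes with 0 UMIs in both classes.

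Of the 5 genes that passed the filter, 3 were called higher in the insulin class than in the glucagon class by limma (G6pc2, Ucn3 and Sytl4) and none lower, where 0.647% of the 4176 genes tested were called in either direction and 0.431% were called higher. The filter is a mean over the pools of all classes, so a gene can pass it through the insulin class alone. Sytl4 did so, with 1 UMI in the glucagon class and 0 in the somatostatin and Ppy classes. Slc2a2 and Ucn3 did so too, as their mean over the pools of the other classes lay below the filter. In the glucagon, somatostatin and Ppy classes Slc2a2 held 6, 5 and 0 UMIs, and Ucn3 14, 2 and 2. The filter thus favours genes that are high in the insulin class, in each comparison with that class. The median difference was 1.56 over the 5 genes that passed the filter and 0.11 over all genes. Without pregnant 2 the count was 4 of 5, with 0.758% of 4353 genes called. With any 1 of the other libraries left out it was 2, G6pc2 and Ucn3. With edgeR on the recovered counts it was also 4 of 5, Slc2a2 being the added gene in both. edgeR called 233 of all genes in this comparison, beside 27 by limma.

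Against the somatostatin class all 5 genes that passed the filter were called higher in the insulin class by limma, where 0.814% of genes were called in either direction and 0.694% were called higher. Without pregnant 2 the count was also 5, with 0.942% called. The differences were 4.50 ± 0.50 for G6pc2, 4.15 ± 0.51 for Ucn3, 2.29 ± 0.48 for Slc30a8, 1.82 ± 0.35 for Sytl4 and 1.63 ± 0.37 for Slc2a2. Against the Ppy class all 5 were called as well, where 0.623% of genes were called (0.575% higher, and 1.1% in either direction without pregnant 2, with 5 of 5 again), with differences of 4.41 ± 0.50, 3.94 ± 0.51, 2.45 ± 0.48, 1.82 ± 0.35 and 1.86 ± 0.37 in the same order. These pools are small: 75773 and 65474 non-hormone UMIs over all libraries, and pregnant 2 gave too few cells to enter. In postpartum 1, 3 counts would be 1995 and 2804 CPM in these pools, and only G6pc2 had a higher insulin-class level. A 0 entered as the constant of 100 CPM. The exact lower limit of the insulin to somatostatin ratio of Slc2a2 was 1.33 in the non-pregnant library. It was 0.76, 0.15 and 0.64 in pregnant 1, postpartum 1 and postpartum 2, which did not show a difference by counting. For Sytl4 only the non-pregnant limit (4.26) passed 1, and for G6pc2 all of these did. With any 1 of the non-pregnant, pregnant 1, postpartum 1 or postpartum 2 libraries left out, only G6pc2 and Ucn3 were called against either class.

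Slc30a8 was the 1 gene of the 5 called between the glucagon class and the others. It was higher in the glucagon class than in the somatostatin class by 2.51 ± 0.48 on the log2 scale (limma adjusted p = 0.013, 0.479% of genes called). Against the Ppy class it was higher by 2.67 ± 0.48 (limma adjusted p = 0.013, 0.0958% of genes called). In postpartum 1 its glucagon-class level was 1181 CPM, with 0 UMIs in the somatostatin and Ppy classes. There, 3 counts would be 1995 and 2804 CPM, so this library could not show the difference by counting. Its size rests in part on the constant of 100 CPM. G6pc2, Ucn3, Slc2a2 and Sytl4 differed between the glucagon class and these 2 classes by 0.23 to 0.83, with limma adjusted p-values of 0.62 to 0.87.

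Droplet cells can hold UMIs from free RNA, and the insulin counts of glucagon-class cells are given beside their other genes. The median glucagon-class cell held 1.19% of its UMIs as Ins1 + Ins2 in the non-pregnant library, 0.99% in pregnant 1, 0.37% in postpartum 1 and 0.737% in postpartum 2. The median insulin-class cell held 28.9%, 35.1%, 51.4% and 61.8%. The ratios of these shares were 24.3, 35.5, 139 and 83.8 in the same order. Cells enter the glucagon class with fewer insulin than Gcg counts, so their low insulin share follows in part from the classing rule. The shares are medians over cells of all UMIs, while the gene ratios are pooled per non-hormone UMI. The shares can thus not gauge free RNA against the gene ratios. The exact intervals of the G6pc2 ratio were 5.05 to 23.2 in pregnant 1 and 4.28 to 63.0 in postpartum 1. Those of Ucn3 were 7.80 to 111 and 2.66 to 84.4. The part of free RNA in the glucagon-class levels of G6pc2 and Ucn3 was not tested. With classes limited to cells whose largest hormone took at least 80% of the hormone counts, Slc30a8 still differed by only -0.28 ± 0.47 between the insulin and glucagon classes (limma adjusted p = 1.00).

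In single cells the share of cells with a UMI of a gene depends in part on depth. In the non-pregnant library 78.2% of insulin-class cells had a G6pc2 UMI (532 of 680, exact 95% interval 74.9% to 81.3%), 54.0% a Ucn3 UMI, 32.4% an Slc30a8 UMI, 26.0% an Sytl4 UMI, 24.6% an Slc2a2 UMI and 12.1% a Trpm5 UMI. Among its 94 glucagon-class cells the shares were 7.45%, 3.19%, 26.6%, 0%, 3.19% and 0%, with medians of 2210.5 UMIs in an insulin-class cell and 1892 in a glucagon-class cell. The 0 of 94 cells has an exact upper limit of 3.85%, which bounds cells with a UMI and not cells that express the gene. The share of Slc30a8 in the glucagon class was thus close to that in the insulin class at similar depth, and the other 5 shares of cells with a UMI were lower.

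In pregnant 1, postpartum 1 and postpartum 2, whose cells held fewer UMIs, the insulin-class share with a G6pc2 UMI was 42.0%, 23.6% and 34.6%. With each cell thinned to 200 UMIs and shallower cells left out, it was 17.9% in the non-pregnant library, 19.6% in pregnant 1, 18.1% in postpartum 1 and 14.3% in postpartum 2. Thinning left out 0, 36, 170 and 5 cells of these libraries, and 120 of 121 in pregnant 2, which gives no value. The thinned share for Ucn3 was 9.41%, 14.8%, 11.2% and 8.42% in the same order, and that for Slc30a8 was 3.97%, 4.49%, 7.76% and 3.70%. Slc2a2 ranged from 2.48% to 3.09%, Sytl4 from 1.57% to 3.88% and Trpm5 from 0.882% to 2.59%. The non-pregnant library, highest for each gene at its own depth, was not highest at equal depth except for Slc2a2. Hormones took a larger part of the 200 UMIs postpartum.

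**Figure D3:**
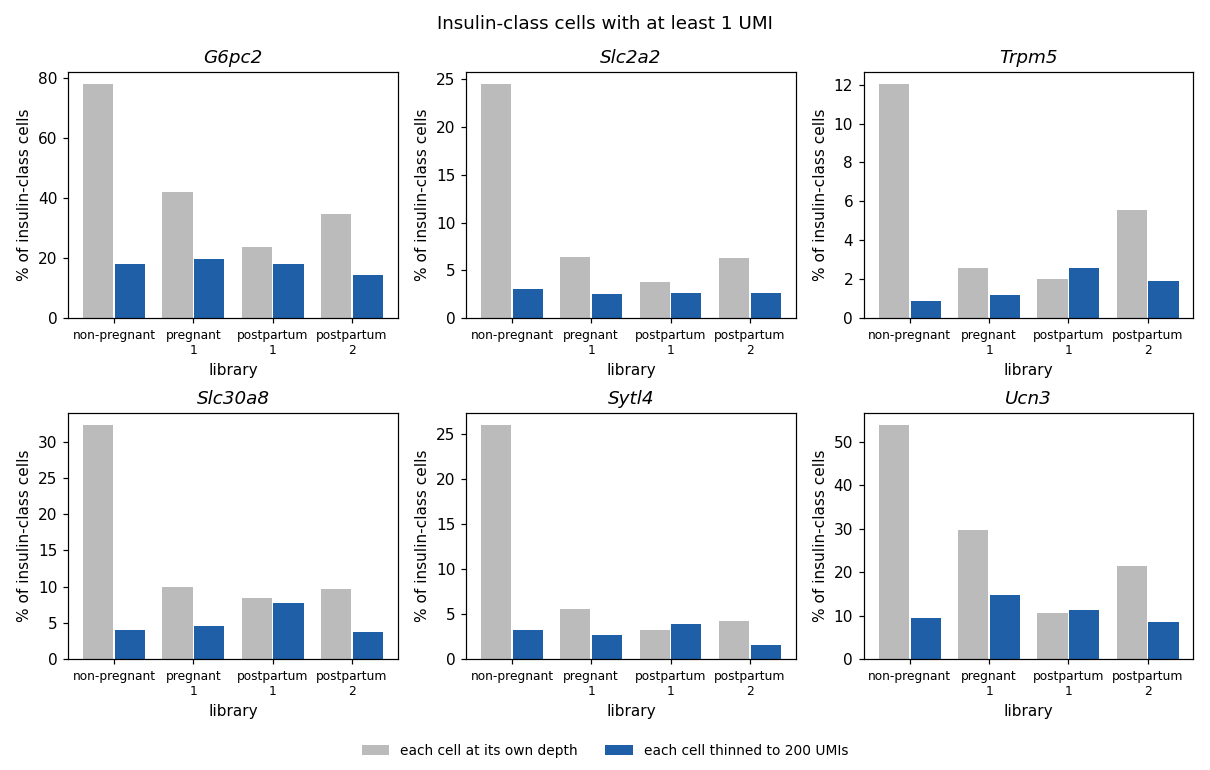
Percent of insulin-class cells with at least 1 UMI of each gene in 4 libraries, at each cell's own depth (grey) and thinned to 200 UMIs (blue). The grey bars are highest in the non-pregnant library, as for G6pc2 at 78.2%, while the blue bars for G6pc2 lie between 14.3% and 19.6%.

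A single insulin-class cell of the non-pregnant library most often held UMIs of 2 of the 6 genes (182 of 680 cells). All 6 were seen in 6 cells and none in 69. Depth moved with this number: the median was 934 non-hormone UMIs in cells with none of the genes and 2646.5 in cells with all 6. In the glucagon class of that library 61 of 94 cells held none and 29 held 1.

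Within the insulin class, G6pc2 and Ucn3 were lower in cells in which insulin took under 20% of the UMIs. In the non-pregnant library G6pc2 stood at 991 CPM in the 68 cells under 20% (exact 95% interval 824 to 1183), 1934 CPM in the 554 cells from 20% to 40% and 1967 CPM in the 58 cells at 40% and over. In pregnant 1 the values were 813, 2098 and 2742 CPM, and in postpartum 2 they were 0, 1406 and 2876 CPM, the 0 with an upper limit of 315.7. Ucn3 gave 629, 993 and 1335 CPM in the non-pregnant library, 339, 1943 and 2029 in pregnant 1, and 0, 469 and 2054 in postpartum 2. In the non-pregnant library the other genes were also lower under 20% than from 20% to 40%, at 104.8 against 312 CPM for Sytl4, 169 against 359 for Slc30a8 and 24.2 against 103 for Trpm5, with intervals that do not overlap. Slc2a2 was at 218 against 292 CPM, with intervals that do. In postpartum 2 Sytl4 had 0 against 2 UMIs in these bands, too few to compare. In pregnant 2 the order for G6pc2 was another, with 18 of its 20 UMIs in cells under 20%. These are levels within 1 library each, with intervals for counting error only, and no test was made. The insulin class also held markers of other cells. In the non-pregnant library endothelial markers summed to 711 CPM there and 89.8 in the glucagon class. Immune markers summed to 528 and 147 CPM, and mesenchymal Sparc stood at 469 and 97.9. Ductal markers went the other way, at 1161 and 2375 CPM. The part of such cells in the band under 20% was not tested. With only cells at 20% and over kept, all 6 genes passed the filter, and 5 of the 6 were called higher in the insulin than in the glucagon class by limma, Slc30a8 being the other. Trpm5 passed the filter there through its insulin-class level, with 0 UMIs in the glucagon class. This setting drops cells from the insulin class only. Over 12 alternative settings, this one among them, 15 to 233 of all genes were called in that comparison, beside 27 in the main fit.

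**Figure D4:**
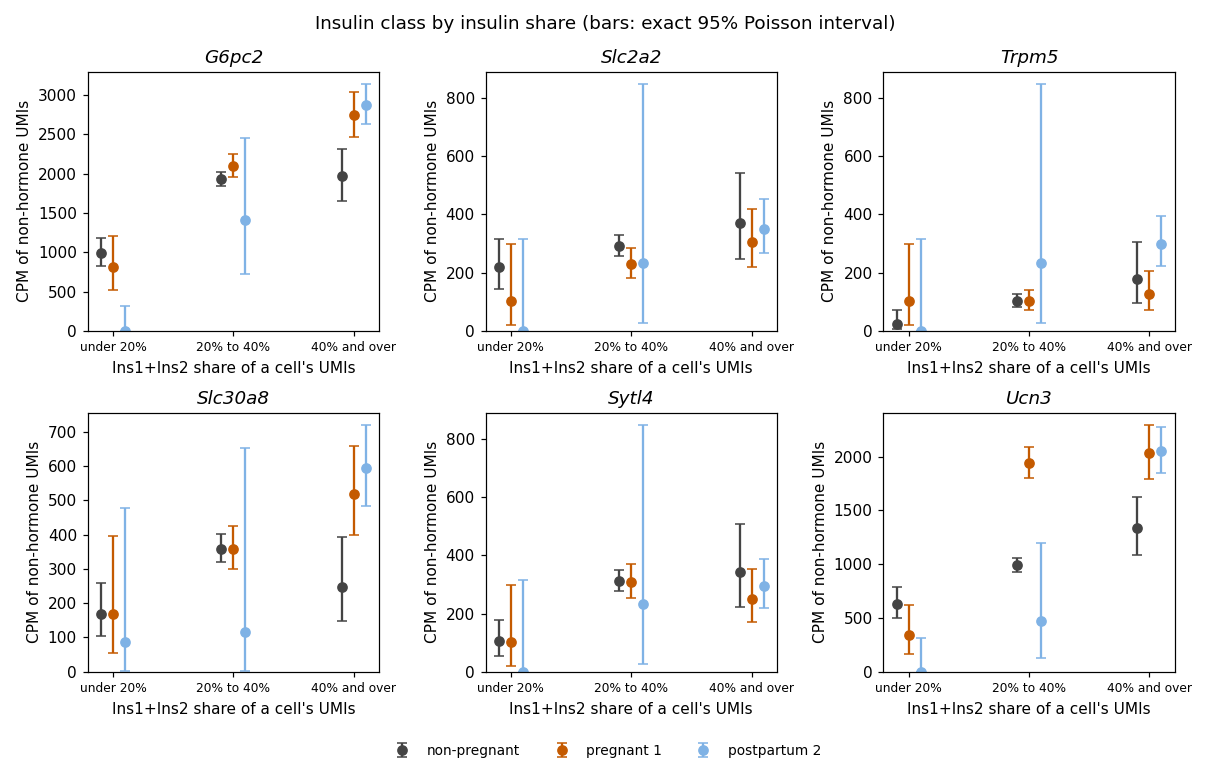
Level of each gene in insulin-class cells with under 20%, 20% to 40%, and 40% or more of their UMIs as insulin, in 3 libraries, with exact 95% Poisson intervals. G6pc2 in the non-pregnant library is at 991 CPM in the lowest band against 1934 and 1967 in the others, and in postpartum 2 all but Slc30a8 are at 0 UMIs in the lowest band.

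Pregnancy state was compared within the insulin class, which answers to the design of non-pregnant, pregnant and postpartum islets. In these fits the SE of a gene follows the trend over all genes and does not hold that gene's own spread between libraries. No gene of the 6 was called between any 2 states. In CPM, the sum of the 6 genes was 3812 in the non-pregnant library, 5071 and 7417 in pregnant 1 and 2, and 6506 and 5916 in postpartum 1 and 2. The non-pregnant library was thus the lowest for the sum, which is mainly G6pc2 and Ucn3. In pooled counts, a change in the number of a kind of cell within the class and a change in RNA per cell cannot be told apart.

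**Figure D5:**
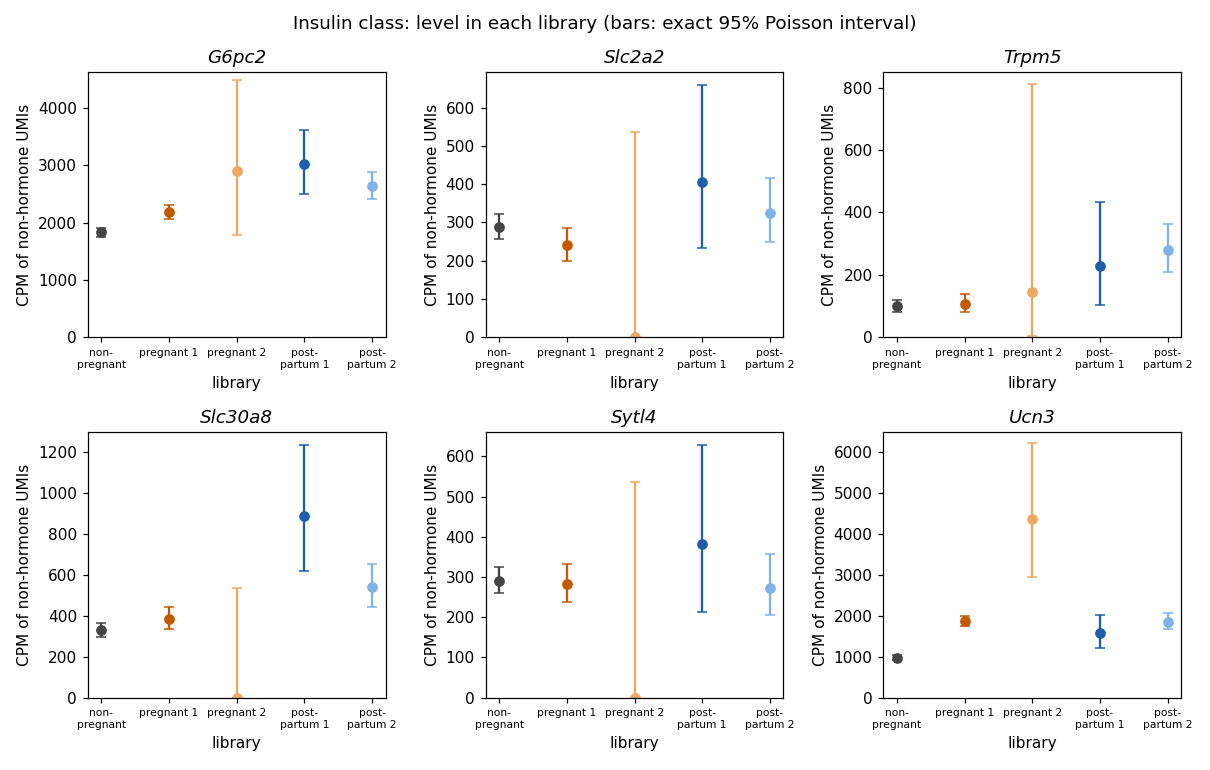
Insulin-class level of each gene in CPM of non-hormone UMIs in each library, with exact 95% Poisson intervals that cover counting error only. Pregnant 2 has the widest intervals for G6pc2, Trpm5 and Ucn3 and is at 0 for Slc2a2, Slc30a8 and Sytl4 with an upper bound of 536 CPM, and the non-pregnant library is lowest for G6pc2, Ucn3 and Trpm5.

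For pregnant against non-pregnant, limma called 0 of 6 genes, where 0.0762% of 3938 genes were called. 0 of the 6 had an unadjusted p under 0.05 by limma, edgeR or DESeq2. The largest difference was that of Ucn3, at 1.47 ± 0.87 on the log2 scale (limma adjusted p = 0.90), with both pregnant libraries above the non-pregnant one. In pregnant 1 alone Ucn3 was 1.92 times the non-pregnant level (exact 95% interval 1.76 to 2.10, counting error only). The 30 UMIs of Ucn3 in pregnant 2 came from 4 cells, 23 of them from 1 cell. Without pregnant 2 the pregnant and non-pregnant arms hold 1 library each, and the spread comes from the postpartum pair alone, pooled over genes, with the lone libraries assumed to vary like that pair. The difference of Ucn3 was then 0.88 ± 0.47 (limma adjusted p = 1.00), with 1.03% of 4448 genes called and 0 of 6 here. Slc2a2, Slc30a8 and Sytl4 gave -1.08 ± 1.38, -0.96 ± 1.51 and -0.999 ± 1.38, values set by 0 UMIs in pregnant 2. Without it they were -0.19, 0.18 and -0.03. The median over all genes was -0.49 with pregnant 2 and -0.01 without it. With pregnant 2 as the only pregnant library, all 3 lay lower and Ucn3 higher in pregnant than in non-pregnant. That fit has 1 sample in its pregnant arm and takes its spread from the postpartum pair, so no call is read from it.

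For postpartum against non-pregnant, limma called 0 of 6, where 0.178% of genes were called, and 0 of the 6 had an unadjusted p under 0.05. All 6 differences lay above 0, from 0.12 ± 1.38 for Sytl4 to 0.89 ± 1.51 for Slc30a8. Their median was 0.68, against -0.05 over all genes. Without pregnant 2, which also enters this fit through the spread, the SEs were 0.37 to 0.46 and the smallest adjusted p was 0.46, for Slc30a8. At that setting 3.98% of 4448 genes were called. G6pc2 in postpartum 1 and 2 was 1.65 and 1.44 times the non-pregnant level, Slc30a8 2.69 and 1.64 times, and Trpm5 2.30 and 2.80 times, by counting alone. Hormones took 58.6% and 63.1% of the UMIs in the postpartum libraries and 38.9% in the non-pregnant one. With all UMIs as the base, G6pc2, Slc2a2 and Sytl4 lay below 0 at -0.07, -0.22 and -0.32, so the direction of these 3 rests on leaving the hormones out.

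For postpartum against pregnant, limma called 0 of 6, where 0.0508% of genes were called, and 0 of the 6 had an unadjusted p under 0.05. Without pregnant 2 the differences were 0.36 ± 0.37 for G6pc2, 0.45 ± 0.46 for Slc2a2, 0.77 ± 0.45 for Trpm5, 0.71 ± 0.46 for Slc30a8, 0.15 ± 0.46 for Sytl4 and -0.12 ± 0.40 for Ucn3, and 1.3% of 4448 genes were called. With pregnant 2 as the only pregnant library, Slc2a2, Slc30a8 and Sytl4 lay higher and Ucn3 lower in postpartum. Pregnant 2 held 0 UMIs of Slc2a2, Slc30a8 and Sytl4, and no call is read from a fit with 1 pregnant library. Trpm5 in postpartum 2 was 2.61 times the level in pregnant 1 (exact 95% interval 1.76 to 3.86), the largest ratio among the 6 genes for this pair of libraries.

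The difference between the insulin and the glucagon class was also compared between states. None of the 6 differed between postpartum and pregnant (limma, 0 of 3931 genes called, a share of 0%), and 0 of the 6 had an unadjusted p under 0.05. The values ran from -1.54 ± 1.01 for Ucn3 to 1.26 ± 0.65 for Slc2a2. For Slc30a8 the difference was -0.57 ± 0.68 in this comparison and -0.62 ± 0.60 without pregnant 2, at which setting 0.112% of 4451 genes were called. With pregnant 2 as the only pregnant library, the value for Ucn3 was -2.56. That fit has 1 library in its pregnant arm, so no call is read from it.

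In the non-pregnant library Mafa, a beta cell transcription factor, stood at 0.92 CPM in the insulin class against 1188 to 1830 CPM in the other 4, while Cpe, the granule carboxypeptidase, stood at 3253 CPM against 557 to 1017 CPM. In simulated data with the layout of the postpartum against non-pregnant fit, 1% of 100 genes changed by 1 on the log2 scale and 63% of 100 genes changed by 3 were called. With the layout of the insulin against glucagon class fit, these shares were 3% and 75%. An uncalled gene in either fit can thus still differ. The changed genes were drawn from those above a set level. Slc2a2 (280 CPM in the insulin class over all libraries), Sytl4 (287) and Trpm5 (123) did not reach it. The high counts per detected gene of pregnant 2 were not simulated.

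Genes of the same pathways, from lists drawn up with the 6 genes, were followed through the same fits. Among 41 other genes of glucose uptake, sensing and coupling, 30 were in all files and 24 were tested between classes. None was called higher in the insulin class than in the glucagon class and 1 was called lower: Gnas, which encodes the stimulatory G protein subunit, was lower by 1.95 ± 0.22 on the log2 scale (limma adjusted p = 1.2e-05). The median over the 24 was 0.17, beside 0.11 over all genes. Gnas was also lower in the insulin than in the somatostatin class (-1.03 ± 0.24) and the Ppy class (-1.24 ± 0.24). The shares of all genes called in these comparisons, given above, are 0.647%, 0.814% and 0.623%. Without pregnant 2, Atp2a2, a calcium pump of the endoplasmic reticulum, was also called higher than in the Ppy class (2.66 ± 0.61).

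Among 37 other genes of beta cell maturity and identity, 23 were tested, and 4 were called higher in the insulin than in the glucagon class by limma. Ero1lb, an oxidase for insulin folding, was higher by 3.63 ± 0.50, Pcsk1, a proinsulin convertase, by 3.63 ± 0.56, Prlr, the prolactin receptor, by 3.49 ± 0.58, and Papss2, a sulfate donor synthase, by 1.96 ± 0.44. The median of the list was 0.89, against 0.11 over all genes. The beta cell markers named above for the classes all stand in this list, Ero1lb, Pcsk1, Prlr and Mafa among them. Against the somatostatin class 6 were called higher and 0 lower, with Ddc (3.34 ± 0.57) and Mafa (3.18 ± 0.63) joining Ero1lb, Prlr, Pcsk1 and Papss2. Against the Ppy class 6 were called higher, led by Prlr at 4.25 ± 0.63.

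Among 32 other genes of the exocytosis machinery, 23 were tested and 0 were called between the insulin and any other class by limma, with a median of 0.23 against the glucagon class. Without pregnant 2, Syt4, a synaptotagmin, was called higher than in the Ppy class (2.08 ± 0.50, limma adjusted p = 0.032). Among 27 other genes of zinc transport and granule content, 18 were tested, and 3 were called higher and 1 lower in the insulin than in the glucagon class. Besides Pcsk1, which stands in 2 lists, Scg2 (2.997 ± 0.47) and Chgb (2.98 ± 0.55), both granins, were higher, and Pcsk2, the convertase that alpha cells use, was lower (-1.03 ± 0.16).

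Between states in the insulin class, 0 of the tested genes of the glucose, maturity and exocytosis lists were called by limma. In the zinc and granule list Chgb was called higher in pregnant than in non-pregnant (1.63 ± 0.32, with 0.0762% of all genes called), at 4772 CPM in pregnant 1 and 12653 in pregnant 2 against 2449. Without pregnant 2 it was not called (0.93 ± 0.36, limma adjusted p = 0.53). In this list 4 of 20 were called higher in postpartum than in non-pregnant, namely Chgb (1.33 ± 0.32), Chga (1.07 ± 0.18), Pcsk2 (1.03 ± 0.20) and Scg2 (0.91 ± 0.19), where 0.178% of all genes were called. Chga was also higher in postpartum than in pregnant (1.36 ± 0.15), at 16672 and 15980.2 CPM against 7986 and 4945, and without pregnant 2 by 1.02 ± 0.24. These SEs follow the trend over all genes. They do not hold a gene's own gap between libraries, such as that of Chga or Chgb between pregnant 1 and pregnant 2. The values without pregnant 2 that follow again take their spread from the postpartum pair alone, and 3.98% of all genes were called between postpartum and non-pregnant there. The maturity list then had 4 of 21 genes higher and 1 lower in postpartum than in non-pregnant, led by Mafa at 4.01 ± 0.45, whose non-pregnant level is given above, and Prlr at 2.67 ± 0.36. Prlr was also called higher in postpartum than in pregnant (2.24 ± 0.36, with 1.3% of all genes called), at 6176 and 6673 CPM against 1282 in pregnant 1. The zinc and granule list had 6 of 22 genes higher and 1 lower in postpartum than in non-pregnant, with Ptprn2 (3.15 ± 0.45) and Cpe (-1.97 ± 0.43) the farthest from 0. In pregnant against non-pregnant the same genes were called in the same directions (2.95 ± 0.52 and -1.999 ± 0.49), and Mafa was called higher (3.67 ± 0.52). Against pregnant, postpartum had 1 gene of the granule list higher, Chga, and 2 lower, Vgf (-1.48 ± 0.42) and Mt2 (-1.24 ± 0.35). In the glucose list Mdh2, a malate dehydrogenase, was lower in postpartum than in non-pregnant (-1.39 ± 0.44), and the exocytosis list had 0 called.

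The genes most like each of the 6 were ranked by Pearson correlation of log2(CPM + 100) over the 18 pools of class and library, among the 4175 other genes. This is a description: the pools share libraries, depth and the shape of 1 high class. G6pc2 and Ucn3 were each other's nearest gene (r = 0.97), followed for both by Ero1lb and Prss53 (0.96 to 0.97). Sytl4 was among the nearest of Slc2a2 (0.96), after Hopx (0.97) and before Tmem163 (0.93), and Slc2a2 was among the nearest of Sytl4, after Tmem215 (0.96). The 3 nearest to Slc30a8 were Isca2 (0.95), Syn2 (0.93) and Ehd4 (0.91), none of which was among the 3 nearest of another of the genes. Ehd4 had 116 CPM in the insulin class and 81.6 in the glucagon class of the non-pregnant library, and 0 UMIs in the somatostatin and Ppy classes of every library that entered.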

How the data were processed

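Processed files of 5 inDrop libraries were used. Per the submitters' processing notes, Partek 8.0 and Bowtie 1.1.1 were used with GRCm38 and mm10, in roles that are not stated. Neither counter nor cell filters are named there. Deposited non-pregnant values are a linear signal scaled by the authors to 1 total per cell, and the other deposited files hold log2 of CPM plus 1. Whole counts were recovered per cell, 100% of values lying within 0.1 of a whole number. Genes were matched by symbol (6543) or synonym (84). Counts were pooled per class and library and given as CPM of non-hormone UMIs. limma 3.58.1 (R 4.3.3) with a trended prior was run on log2(CPM + 100) for genes averaging 50 CPM or more and pools of at least 10 cells, with library as a block between classes and Benjamini-Hochberg adjusted p under 0.05 as the threshold. The insulin-class state fits had 5 pools and 2 residual degrees of freedom. Their prior degrees of freedom were infinite, so a gene's SE came from the trend over all genes. edgeR 4.0.16 and DESeq2 1.42.0 were run on the recovered counts as alternatives. The fits were tested on simulated data. Intervals and the floor of 3 counts cover counting error only. No doublet caller was run, and cells with a largest hormone of at least 80% served as an alternative. All 6 genes were named. Of the lists, up to 4 called genes per comparison with the largest change were named. Named levels of Mafa, Cpe, Prlr and Ehd4 were chosen after their values were seen. The 6 genes and the lists were chosen with earlier results of these data known. Some list and marker genes, among them 1 called gene of the maturity list, are not reported here.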

Additional observations from a re-analysis of the deposited data

How the results depend on the processing

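G6pc2 and Ucn3 were called higher in the insulin class than in each other class under all 17 alternatives. Of the 5 tested genes, the count called against the glucagon class was 3. It was 5 with insulin at 20% or more of UMIs and with the largest hormone at 80% or more. In both of these settings Trpm5 passed the filter, through its insulin-class level. The count was 2 with all UMIs as denominator and with a filter of 100 CPM, where 3 were tested, and 2 with a constant of 10 CPM. It was 4 with edgeR, with a mean over cells and with no filter. Leaving out 1 library gave 2 to 4. Against the somatostatin and the Ppy class the count of 5 became 3 with all UMIs as denominator, 3 with a filter of 100 CPM, 3 with DESeq2 and 3 with no replicate block, and 2 to 5 on leaving out 1 library. The fits with fewer members tested (all UMIs, 100 CPM) had 3 tested. Between states the count was 0 under 11 or 12 other settings per comparison, and 0 to 4 on leaving out 1 library for pregnant minus non-pregnant and for postpartum minus pregnant, 0 to 1 for the class difference, and 0 for postpartum minus non-pregnant. The counts above 0 arose without pregnant 1, which leaves 1 library in the pregnant arm. For pregnant minus non-pregnant and postpartum minus pregnant, counts over all genes rose there too, as given below. With the replicate number as a block, postpartum minus pregnant and the class difference also had 0 called. The numbers 1 and 2 share only a number: deviations of same-numbered libraries correlated at r = 0.0037 over 3938 genes.

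Counts of all genes called moved more. For the insulin minus glucagon class 27 were called, 10 to 33 on leaving out a library, 126 by DESeq2 and 233 by edgeR. The range over the 12 other settings was 15 to 233. For pregnant minus non-pregnant 3 were called and 2079 without pregnant 1. For postpartum minus non-pregnant the number was 7, and 177 without pregnant 2. For postpartum minus pregnant it was 2, and 2402 without pregnant 1. The cause was not tested.

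Some uncalled state differences changed sign, on the log2 scale. For pregnant minus non-pregnant, G6pc2 was -0.23 by edgeR, -0.044 by DESeq2 and -0.75 with insulin at 20% or more. Trpm5 was -0.11 as a mean over cells, -0.24 by edgeR and -0.082 by DESeq2. Slc30a8 ranged from -2.10 without pregnant 1 to 0.18 without pregnant 2, and 0.25 by edgeR without it. For postpartum minus non-pregnant with all UMIs, G6pc2 was -0.073, Slc2a2 -0.22 and Sytl4 -0.32. Sytl4 ranged from -0.066 without postpartum 1 to 0.30 without postpartum 2. For postpartum minus pregnant, G6pc2 was -0.075 as a mean over cells, -0.44 with all UMIs and from -0.041 without pregnant 1 to 0.36 without pregnant 2, and Ucn3 was 0.11 by edgeR. For the class difference, G6pc2 was 0.036 with a constant of 500 CPM, 0.79 by edgeR, 0.68 by DESeq2, 0.95 with insulin at 20% or more, from -1.26 without pregnant 1 to 0.81 without pregnant 2, 0.21 without postpartum 1 and 1.48 by edgeR without pregnant 2. Sytl4 was -4.23 by edgeR and -4.97 by edgeR without pregnant 2. The settings with insulin at 20% or more, DESeq2, and edgeR without pregnant 2 were added after seeing the data.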

Other observations

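Several genes that act beside the 6 were present in the non-pregnant file and not in the shared list, so they have 1 library and no test. Values are CPM of non-hormone UMIs with exact 95% Poisson intervals for counting error. Ffar1, a fatty acid receptor, stood at 158 CPM in the insulin class and 130.6 in the glucagon class. Fam151a, a gene of the maturity list, stood at 145 CPM in the insulin class (123.5 to 169.8) and had 0 UMIs in the glucagon, somatostatin and Ppy classes. Gipr, the receptor of the incretin GIP, had 46 UMIs in the insulin class, 0 in the glucagon class and 4 in the Ppy class. Glp1r, the receptor of the incretin GLP-1, had 7 UMIs in the insulin class and 1 in the glucagon class, too few to compare. Trpm4, a channel related to TRPM5, stood at 27.6 CPM in the insulin class and 32.6 in the glucagon class, where Trpm5 had 0 UMIs.

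Slc30a8 in the insulin class differed between the postpartum libraries by counting: postpartum 2 was 0.61 times postpartum 1 (exact 95% interval 0.41 to 0.92), a gap between replicates of 1 group.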
